A study of Salmo salar with 26 samples.

Results

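The comparison concerns lens libraries of Atlantic salmon (Salmo salar) that held little connexin 43 RNA. Connexin 43 (gap junction alpha-1, unigene CL2590.Contig1) forms gap junctions between lens epithelial cells. Libraries were kept where its deposited RPKM (reads per kilobase of unigene, scaled to the library's counted reads) was below 13.68, which gave 12 of 26 libraries, and the other 14 are called connexin 43-rich. Lenses came from diploid (2N) and triploid (3N) fish and were without (-) or with (+) cataract. The 12 libraries comprised 2 of group 2N-, 2 of 2N+, 3 of 3N- and 5 of 3N+, so 7 lenses with cataract were compared with 5 without, each from its own fish. The labels name no treatment beyond sorting by ploidy, and no grade or cause of cataract is used here.

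The lens consists of a thin layer of epithelial cells over a mass of elongated fibre cells. Epithelial cells divide and differentiate into fibres, which fill with crystallins, the proteins that give the lens its refraction and transparency, and build a lens-specific beaded filament from filensin and phakinin. Fibres lose their organelles and renew protein slowly, so chaperones, among them the alpha crystallins and heat shock proteins, are known for their part in keeping crystallins soluble.

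Connexin 43 chose the libraries, and its values are a description. It was 1.90 and 1.39 RPKM in the 2N- libraries (replicates 2 and 4), 0.560 and 5.09 in 2N+ (1 and 4), 0.981, 0.420 and 2.73 in 3N- (2, 3 and 5), and 7.89, 1.78, 2.40, 4.44 and 1.42 in 3N+ (1, 2, 4, 7 and 8). The highest library inside the threshold held 7.89 RPKM and the lowest outside it 23.7. The other 10 unigenes of the epithelium marker list all had Pax-6 or epithelial cadherin as protein hit. They summed to 16.8 to 41.7 RPKM in the 12 libraries and to 36.4 to 99.1 in the connexin 43-rich ones, so the 2 ranges overlapped slightly. Within the 12 libraries the whole list of 11, connexin 43 included, summed to 17.3 to 49.6 RPKM with cataract (median 23.1). Without cataract it summed to 17.2 to 21.4 (median 21.1). Crystallins took 41.3 to 47.3% of the reads in the 12 libraries and 38.0 to 43.6% in the rich ones. The labels say nothing about dissection. In these lens libraries, fewer cells of a type and less RNA per cell cannot be told apart.

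**Figure D1:**
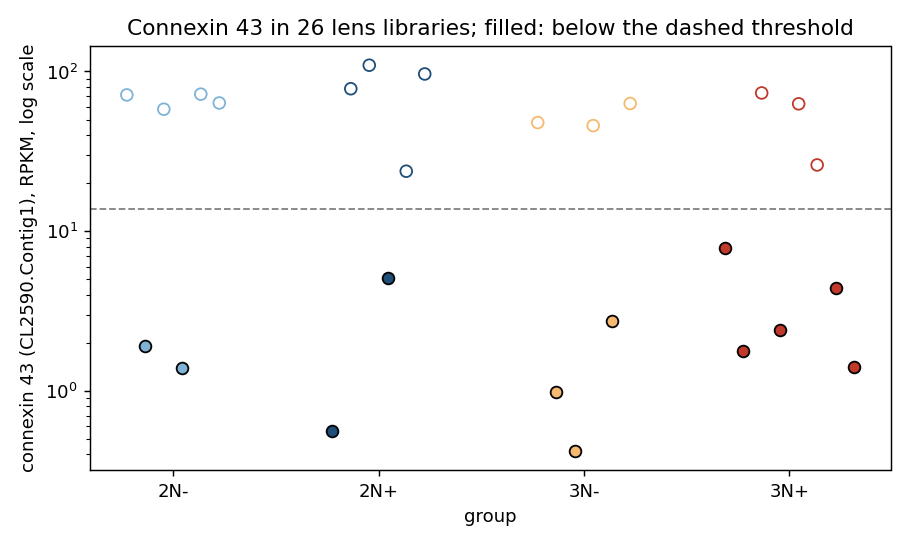
Deposited RPKM of connexin 43 (log axis) in each of the 26 lens libraries by group, with 1 point per fish. The 12 filled points lie below the dashed threshold of 13.68 RPKM and were compared here, and the open points are the 14 connexin 43-rich libraries, of which the lowest held 23.7 RPKM.

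The 12 libraries held 10.34 to 11.95 M counted reads. Both 2N- libraries lay lowest on the first principal component (-28.8 and -28.5), which carried 19.9% of the variance. The 2N- replicate 2 also had the lowest trimmed-mean scaling factor, 0.81, beside 0.93 to 1.12 in the other libraries. Replicates 1, 4 and 7 of 3N+ stood apart at the other end of this component (23.8 to 35.9). Keratin-18 (Unigene7304), a filament protein of simple epithelia, was 36.1 to 101 RPKM in these 3 and at most 3.54 in the other 9, and the S100 protein ictacalcin (Unigene4061) was 339 to 796 RPKM against at most 53.3. The summed RPKM of the 9 surface epithelium markers was 38.5 to 399 with cataract and 33.8 to 45.7 without. The 14 retina markers summed to 10.4 to 394 with cataract and 4.44 to 151 without, and the 4 erythrocyte markers to 7.89 to 1374 and 6.97 to 2028. The 5 leukocyte markers summed to at most 9.92 RPKM and 1 of them was at 0 in all 12 libraries, and the single pigment cell marker reached at most 3.45 RPKM. The 6 muscle and vessel markers, led by slow troponins, summed to 76.2 to 140 RPKM with cataract and 56.6 to 66.0 without. The part of these cells or of body weight in the results below was not tested beyond the values given with and without the 3 libraries and with weight in the model. Fish with cataract weighed 613 ± 242 g (SD, n = 7) and those without 385 ± 143 g (SD, n = 5), a difference of 228 g that did not pass a two-sided exact permutation test (p = 0.0922, adjusted p = 0.166 over 9 measures, smallest possible p 0.00126). That test pooled the ploidies. The 2N- fish weighed 280 and 285 g and the 2N+ fish 840 and 745 g, so in diploids weight and cataract cannot be told apart. The 3N- fish weighed 280 to 565 g and the 3N+ fish 270 to 885 g.

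Most differences in lenses with cataract were decreases, and crystallins and beaded filament proteins were among them. Of 15440 unigenes tested, 157 differed (1.02%), of which 140 fell (0.907%) and 17 rose (0.11%), by limma's empirical Bayes test on log2 scaled RPKM with ploidy in the model and a Benjamini-Hochberg adjusted p below 0.05. Protein hits were recorded for 76 of those that fell, among them crystallins, both beaded filament proteins, heat shock protein 70 and 2 unigenes like ceramide synthase, and for 6 of those that rose, led by an N-myristoyltransferase. The median log2 change was -0.75 among the 140 and 1.496 among the 17.

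The split depended on the scaling and on the libraries fitted. On deposited RPKM without further scaling, where the overall median log2 change was 0.14 beside -0.0043 with scaling, 36 rose and 42 fell. Of the 157, 59 were called again, while all 157 kept their sign. The 157 were called on these same libraries, so a kept sign here or in the fits below is not separate evidence. Without 3N+ replicates 1, 4 and 7 the test called 5 higher and 129 lower, and 91 of the 157 were called again (4 that rose and 87 that fell). From fewer libraries, diploids alone gave 10 higher and 12 lower, and triploids alone 9 higher and 24 lower. Triploids without these 3 libraries gave 4 higher and 5 lower. With log2 body weight in the model 136 were called, 90 of them among the 157, and all 157 kept their sign. With weight, 8 of the 31 named genes that passed lost their call. Among these 8 were filensin (limma adjusted p = 0.0705), Rab-32-like (0.0623), attractin-like 1-like (0.0856), borealin-2 (0.0928) and the calcium channel subunit (0.0961). Without those 3 libraries 13 crystallin, 3 fibre structure, 4 chaperone and 2 lipid metabolism unigenes of the lists below fell and none of these lists held a rise.

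**Figure D2:**
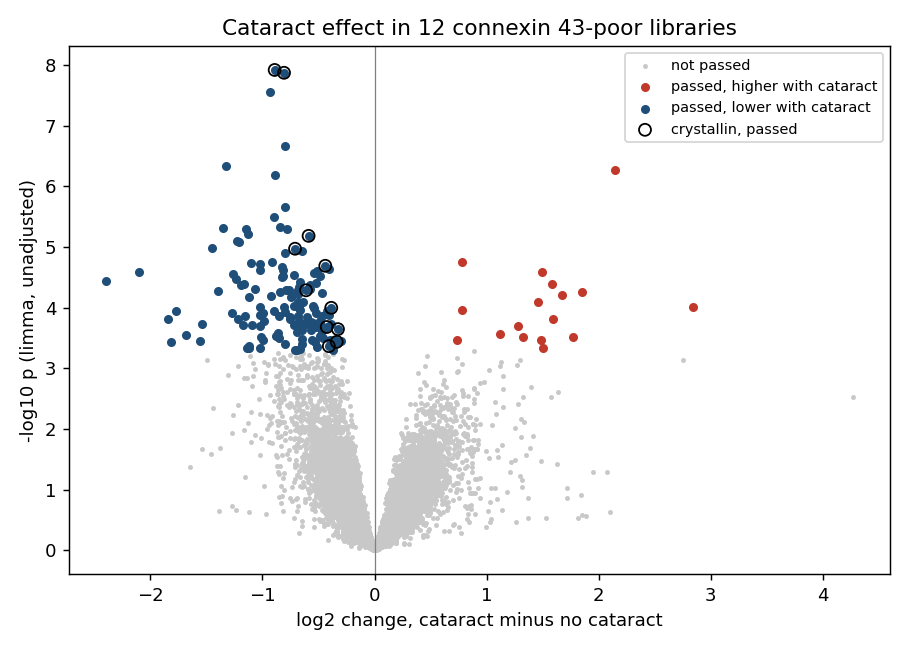
Log2 change (cataract minus no cataract, horizontal) and -log10 of the unadjusted limma p (vertical) of 15440 unigenes in the 12 connexin 43-poor libraries. Coloured points passed an adjusted p of 0.05, 140 on the left and 17 on the right, and the circled ones are the 11 crystallin unigenes that passed, all on the left.

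Crystallins held the most calls of any list. Of 62 crystallin unigenes 61 were tested, 11 fell and none rose, beside 0.907% and 0.11% of all unigenes tested. A negative log2 change was found in 59 of the 61, beside 7856 of all 15440. The crystallin median log2 change was -0.21, beside -0.0043 over all unigenes tested. With RPKM as deposited the median was -0.042 beside 0.14 over all unigenes and 8 fell, and scaled to the reads outside crystallins it was -0.099 beside 0.093 and 8 fell. Crystallins together took 43.2 ± 1.34% of reads with cataract (SD, n = 7) and 45.6 ± 1.203% without (SD, n = 5), a difference of -2.39 percentage points with a two-sided exact permutation p of 0.0126 and an adjusted p of 0.0568 over 9 measures.

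The decrease was uneven among crystallin classes. Beta-crystallin S had the lowest median, -0.66 over 6 unigenes, of which 4 fell. These unigenes together took 0.665 ± 0.113% of reads with cataract (n = 7) and 1.03 ± 0.104% without (n = 5). Unigene7954, like beta-crystallin S, was at 11823 and 12254 RPKM in the 2N- libraries and at 9918, 10190 and 9235 in 3N-, whereas the 7 lenses with cataract ran from 5156 through a median of 6189 to 8076. Every lens with cataract was below every lens without it, a pattern that 0.356% of all unigenes showed in deposited RPKM. The log2 change was -0.89 ± 0.077 (SE, limma adjusted p = 0.000103). CL619.Contig1, also like beta-crystallin S, was at 6562, 6720, 5644, 6102 and 5580 RPKM without cataract (2N- 2 and 4, then 3N- 2, 3 and 5) and at 3182, 3587 and 4916 (lowest, median and highest) with it. The groups again did not overlap, and its log2 change was -0.81 ± 0.070 (SE, limma adjusted p = 0.000103). Both passed in each of the 12 fits that left out 1 library. Unigene7957, also like beta-crystallin S, fell by 0.71 on the log2 scale (limma adjusted p = 0.00865), with 6 of 7 lenses with cataract below all 5 without. These unigenes carry the same protein name, so their reads may be split between near-identical copies.

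Gamma-crystallin N followed, with a median of -0.40 over 4 unigenes, 3 of which fell. It took 3.58 ± 0.140% of reads with cataract (n = 7) and 4.31 ± 0.163% without (n = 5). CL85.Contig1, like gamma-crystallin N, was at 8795, 8522, 8225, 7281 and 6789 RPKM without cataract and between 5262 and 6162 with it, with a median of 5927. No lens with cataract reached the lowest lens without, and the log2 change was -0.59 ± 0.085 (SE, limma adjusted p = 0.00672). In contrast to these, none of the 27 gamma-crystallin M unigenes passed, although 26 were negative with a median of -0.17. The 10 beta-crystallin B unigenes had a median of -0.16 and 2 fell, and the 6 beta-crystallin A unigenes a median of -0.23 and 1 fell. The 5 unigenes of gamma-crystallin B, D or no stated type had a median of -0.31 and 1 fell. The 2 gamma-crystallin S unigenes had a median of -0.10, neither passed, and their share of reads was 1.88 ± 0.197% with cataract (n = 7) and 1.76 ± 0.0987% without (n = 5). With RPKM as deposited the medians were 0.063 for gamma S and 0.00050 for beta B, so their sign turned, while each stayed below the median of all unigenes there (0.14). The single alpha A crystallin, a small heat shock protein of the lens, had a log2 change of -0.17 and took 1.64 ± 0.511% of reads with cataract (n = 7) and 1.61 ± 0.286% without (n = 5). The difference between classes was not tested.

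**Figure D3:**
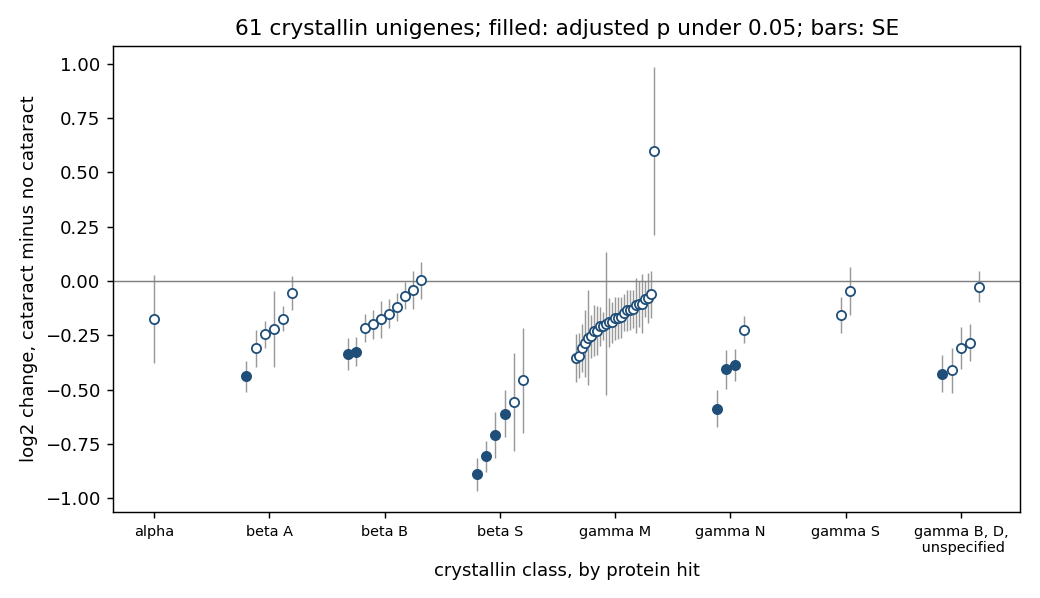
Log2 change with SE of the 61 crystallin unigenes tested, grouped by the class in the protein hit, with filled points for those with an adjusted p below 0.05. Beta S lies lowest, down to -0.89, and the 27 gamma M unigenes hold no filled point.

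Both beaded filament proteins fell. Of 17 lens fibre structure unigenes tested 2 fell and 16 were negative, with a median log2 change of -0.29. Over all unigenes tested, 0.907% fell and 7856 of 15440 were negative. Phakinin (CL833.Contig2) was at 95.4, 104.6, 123, 113 and 114.1 RPKM without cataract and between 65.1 and 101.5 with it, with a median of 80.6. One lens with cataract, 2N+ replicate 4, lay within the range of the lenses without, and the log2 change was -0.66 ± 0.11 (SE, limma adjusted p = 0.0137). Filensin (CL655.Contig4) changed by -0.53 ± 0.10 (SE, limma adjusted p = 0.0228), with 6 of 7 lenses with cataract below all 5 without. Neither passed with RPKM as deposited (adjusted p = 0.0677 and 0.0845). With body weight in the model phakinin passed (adjusted p = 0.0376) and filensin did not (0.0705).

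Among 91 chaperone unigenes 5 fell and none rose, beside 0.907% and 0.11% of all unigenes tested. The median of the list was 0.00071, so the list as a whole lay where all unigenes lay. The 5 were 3 unigenes of heat shock protein 70, which refolds damaged protein, and 2 like DnaJ B5, a co-chaperone of the HSP70 family. Whether the 3 HSP70 unigenes, of 357, 654 and 331 bases, are pieces or copies of 1 transcript was not tested. Inducible HSP70 (Unigene8846) was at 31.9, 46.04, 25.9, 31.9 and 26.2 RPKM without cataract and between 14.5 and 27.9 with it, with a median of 19.0. Both 2N+ lenses overlapped the lenses without cataract and the 5 3N+ lenses did not. Its log2 change was -0.78 ± 0.11 (SE, limma adjusted p = 0.00598), and it passed with each library left out in turn. Unigene7837 (heat shock 70 kDa protein) changed by -0.72 (adjusted p = 0.021), Unigene6290 by -0.80 (adjusted p = 0.0419) and the DnaJ B5-like Unigene9627 by -1.02 (adjusted p = 0.0273). These 3 passed in 8, 2 and 5 of the 12 fits that left out 1 library. Inducible HSP70 was the 1 chaperone that still passed with RPKM as deposited (adjusted p = 0.0357) or scaled to reads outside crystallins (adjusted p = 0.0225), where Unigene7837, Unigene6290 and Unigene9627 did not (adjusted p = 0.0911, 0.106 and 0.0627 with RPKM as deposited).

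A pair of unigenes of very-long-chain ceramide synthesis, a step of membrane sphingolipid formation, fell. Ceramide synthase 2-like (Unigene9745) was at 6.81, 7.24, 8.48, 10.1 and 6.08 RPKM without cataract and between 1.97 and 6.13 with it, with a median of 3.57. A single lens with cataract, 3N+ replicate 4, exceeded the lowest lens without. The log2 change was -1.22 ± 0.24 (SE, limma adjusted p = 0.0248). LAG1 longevity assurance homolog 2-like (Unigene15535), LAG1 being the yeast name of this enzyme family, changed by -1.35 ± 0.19 (SE, limma adjusted p = 0.00598) at a mean of 0.827 RPKM with cataract and 2.59 without. Its mean log2 CPM was 0.13, so it rests on few reads. Both hits carry the number 2, and Unigene15535 spans 433 bases. Whether the 2 unigenes are pieces or copies of 1 gene was not tested. With RPKM as deposited or scaled to reads outside crystallins Unigene15535 passed (adjusted p = 0.0189 and 0.0149) and Unigene9745 did not (adjusted p = 0.0627 and 0.0603). No other of 53 tested unigenes of fatty acid and sphingolipid metabolism passed, where 0.907% of all unigenes tested fell. The list had a median of -0.12 beside -0.0043 over all unigenes. Without 3N+ replicates 1, 4 and 7 its median was -0.0052 beside -0.0089.

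The largest decreases among well-covered unigenes with a protein hit included signalling proteins and enzymes. Adenosine deaminase (Unigene4383), the enzyme that turns adenosine into inosine, was at 70.8, 70.9, 46.6, 52.1 and 57.2 RPKM without cataract and between 18.5 and 58.9 with it, with a median of 26.3. All but 2N+ replicate 4 lay below the lenses without cataract, and the log2 change was -1.16 ± 0.20 (SE, limma adjusted p = 0.014). The DEPTOR-like Unigene4123, named for an inhibitor of the growth kinase mTOR, was at 96.4, 111, 69.7, 75.2 and 87.4 RPKM without cataract and between 26.7 and 80.7 with it, with a median of 44.4. The same 2N+ lens was again the only one to overlap, and the change was -1.03 ± 0.17 (SE, limma adjusted p = 0.0122). Matrix metalloproteinase-14-like (CL384.Contig1), a membrane-bound protease of extracellular matrix, was at 7.53, 9.32, 7.06, 10.4 and 7.99 RPKM without cataract and between 2.23 and 6.28 with it, with a median of 4.66. These groups did not overlap, and the change was -0.996 ± 0.19 (SE, limma adjusted p = 0.0228).

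Others with a decrease of this size were tripartite motif-containing 60-like (Unigene5114, log2 change -1.21), cdc42 effector protein 2 (Unigene10653, -1.15), which acts on the actin cytoskeleton, ependymin (Unigene2891, -1.17), attractin-like 1-like (Unigene3900, -1.02) and borealin-2 (Unigene9252, -1.03), a protein of chromosome segregation and the single call among 42 cell cycle unigenes (beside 1.02% of all unigenes). The remaining 5 of the 15 lowest had uncharacterized or unnamed hits. Of the other lists, gamma-glutamylcyclotransferase-like (Unigene73), an enzyme of glutathione turnover, was the single call among 49 antioxidant unigenes, again near that share, and fell by 0.55 (limma adjusted p = 0.021). The calcium channel subunit alpha-2/delta-3-like (CL913.Contig2) was the single call among 12 of ion and water transport and fell by 0.98 (adjusted p = 0.0256). With RPKM as deposited ependymin (Unigene2891), attractin-like 1-like (Unigene3900), borealin-2, the calcium channel subunit and the metalloproteinase did not pass (adjusted p = 0.0844, 0.0712, 0.110, 0.0844 and 0.0645). Without 3N+ replicates 1, 4 and 7 ependymin, borealin-2, the calcium channel subunit, the metalloproteinase and adenosine deaminase did not (adjusted p = 0.105, 0.0512, 0.0784, 0.0536 and 0.0506). Chymotrypsin-like elastase 2A-like (Unigene8246), named after its values were seen because it had the smallest p outside crystallins, was at 357, 432, 455, 491 and 391 RPKM without cataract and between 226 and 311 with it, and fell by 0.93 (limma adjusted p = 0.000145).

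**Figure D4:**
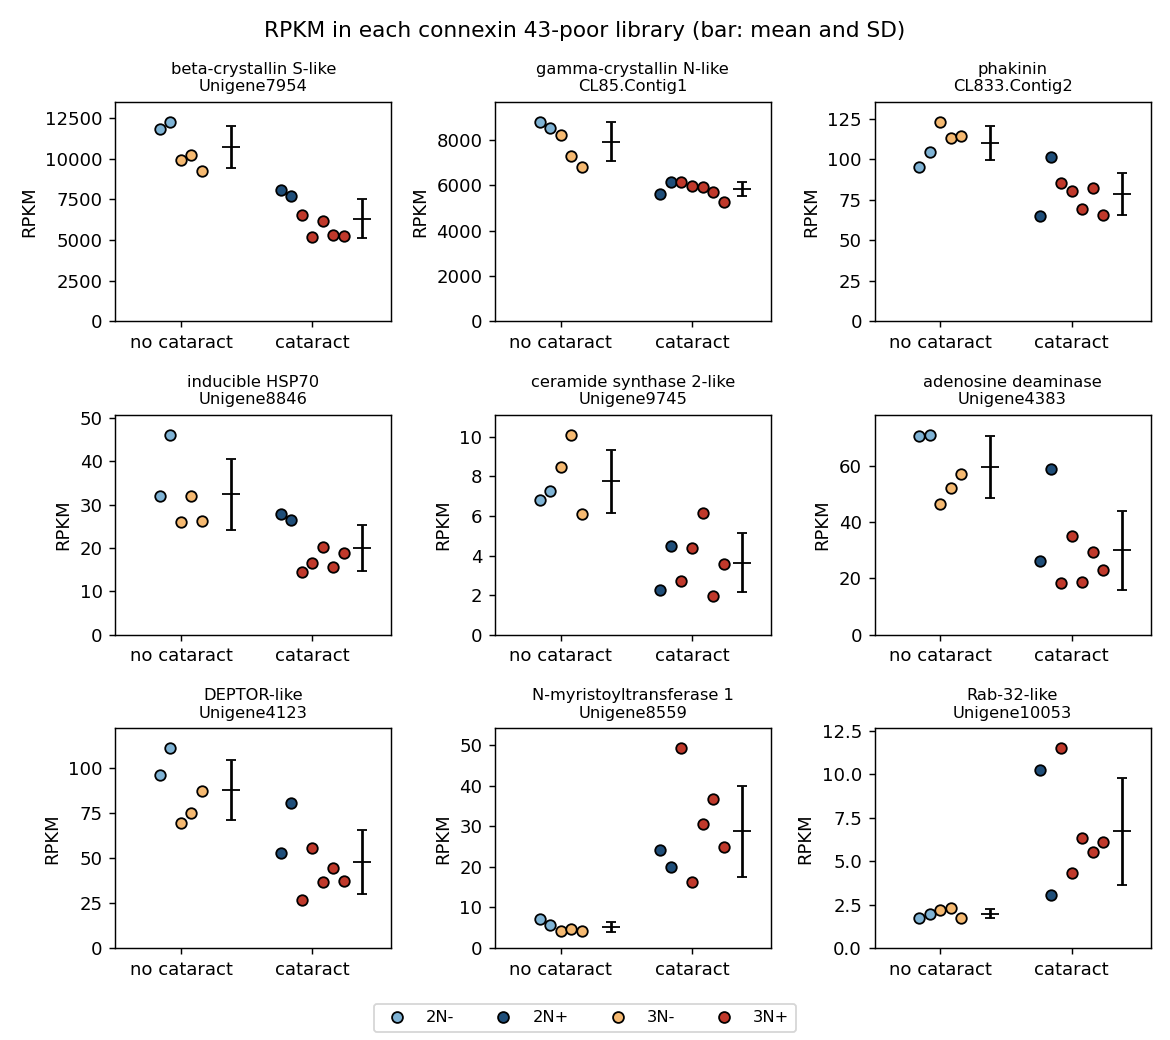
Deposited RPKM of 9 unigenes in each of the 12 connexin 43-poor libraries, coloured by group, with 1 point per fish and a bar for mean and SD of the 5 lenses without and the 7 with cataract. Of these panels, beta-crystallin S-like, gamma-crystallin N-like, N-myristoyltransferase 1 and Rab-32-like show no overlap between the groups.

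Of the unigenes that rose, 4 combined a protein hit with a mean log2 CPM of at least 1. Glycylpeptide N-tetradecanoyltransferase 1 (Unigene8559), a transferase that adds myristate to protein N-termini, was at 7.08, 5.70, 4.24, 4.78 and 4.24 RPKM without cataract and between 16.2 and 49.2 with it, with a median of 24.8. Every lens with cataract exceeded every lens without, as for 1.67% of all unigenes in deposited RPKM, and the log2 change was 2.14 ± 0.25 (SE, limma adjusted p = 0.0014). It passed with each library left out and without 3N+ replicates 1, 4 and 7 (1.70, adjusted p = 0.00158). A second unigene with the same protein hit, CL533.Contig2, moved the other way, from 78.5 ± 6.49 RPKM (n = 5) to 60.95 ± 7.42 (n = 7). Its log2 change was -0.52 (limma adjusted p = 0.0122). CL533.Contig2 did not pass with RPKM as deposited (limma adjusted p = 0.0919) or scaled to reads outside crystallins (0.0717). CL533.Contig1, with the same hit again, did not pass (0.043, adjusted p = 0.927).

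The small GTPase Rab-32-like (Unigene10053), which acts in the traffic of lysosome-related organelles, was at 1.72, 1.95, 2.17, 2.32 and 1.71 RPKM without cataract and between 3.04 and 11.5 with it, with a median of 6.11. The groups did not overlap and the log2 change was 1.28 ± 0.26 (SE, limma adjusted p = 0.0271). Translation initiation factor 4 gamma 1-like (Unigene3346) rose by 1.77 (adjusted p = 0.0363) and vacuolar protein sorting-associated protein 13D (Unigene7082), a lipid transfer protein, by 1.49 (adjusted p = 0.0383). Rab-32-like passed in 6 of the 12 fits that left out 1 library, Unigene3346 in 2 and Unigene7082 in 3. Without 3N+ replicates 1, 4 and 7 none of these 3 passed (adjusted p = 0.122, 0.153 and 0.225), with log2 changes of 1.07 for Rab-32-like, 1.647 for Unigene3346 and 1.37 for Unigene7082.

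Several lists held no call. None of 115 oxidative phosphorylation, 110 cytosolic ribosomal, 63 proteasome, 29 glycolysis and polyol, 29 autophagy and lysosome, 21 sterol synthesis, 17 amino acid and peptide transport, 37 calpain, annexin and S100 or 25 immune unigenes passed, and their medians lay between -0.060 and 0.15. Since 1.02% of all unigenes tested were called, lists of this size with no call, or with 1, lie near the background. Of 34 extracellular matrix unigenes the metalloproteinase alone fell. Among lens development regulators none of 21 passed. The Maf-like transcription factor (Unigene8519), whose mammalian relative drives crystallin expression in fibres, had a log2 change of 0.59 (adjusted p = 0.117) with 7 of 7 lenses with cataract above all others, and Sox-2 (CL1160.Contig2) had -0.68 (adjusted p = 0.0914). Ictacalcin had the largest log2 change of its list, 4.27 ± 1.08 (SE), and did not pass (limma adjusted p = 0.124). All 7 lenses with cataract, at 5.95 RPKM or more, lay above those without, at 5.38 or less. Without 3N+ replicates 1, 4 and 7 its log2 change was 2.58 (limma adjusted p = 0.0838). None of the tested erythrocyte, retina, surface epithelium, leukocyte or muscle markers passed. The share of reads from muscle and vessel markers was 0.00804 ± 0.00174% with cataract (n = 7) and 0.00457 ± 0.00106% without (n = 5), with an exact permutation p of 0.00758 and an adjusted p of 0.0568 over 9 measures.

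The effect was next set against ploidy. No unigene passed the test of a difference in cataract effect between triploids and diploids (limma, 0 of 15440, 0%, with 1180 at an unadjusted p below 0.05), a test limited by 2 diploid libraries per group. All 157 called unigenes had the same sign in diploids and triploids fitted alone, beside 54.7% of all unigenes tested, but the calls were made on the same libraries. VPS13D (Unigene7082) changed by 0.27 in diploids and 2.14 in triploids, and Unigene3346 by 0.49 and 2.46.

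The 14 connexin 43-rich libraries come from other fish and were not used for these calls. Diploid weights did not overlap there either, at 110 to 345 g in 2N- and 460 to 530 g in 2N+ fish. Of the 157 unigenes, 154 were tested there, 152 had the same sign (98.7%, beside 64.7% of the 15314 unigenes tested in both), and 86 of them were also called, which is 55.8% of the 154 and 28.8% of the 299 called in the rich libraries (1.56% of 19195 tested, with 242 or 1.26% lower and 57 or 0.297% higher). With RPKM as deposited the rich libraries gave 667 higher and 172 lower. The median log2 change of the 137 that fell was -0.73 in both sets, and that of the 17 that rose was 1.496 in the poor and 0.69 in the rich libraries, a difference between medians that was not tested. These unigenes were picked by passing in the poor libraries, which can inflate their medians there but not in the rich ones. Adenosine deaminase changed by -2.01 ± 0.23 in the rich libraries (SE, limma adjusted p = 0.00107) and DEPTOR-like by -1.78 ± 0.25 (adjusted p = 0.00353). N-myristoyltransferase Unigene8559 changed by 1.27 ± 0.28 (adjusted p = 0.033) and Rab-32-like by 1.66 ± 0.28 (adjusted p = 0.0074). The other named rises did not pass there. Unigene3346 changed by 0.39 ± 0.42 (SE, limma adjusted p = 0.768) and VPS13D (Unigene7082) by 0.48 ± 0.41 (adjusted p = 0.694). Crystallins as a list had a median log2 change of -0.38 in the rich libraries, where 12 of 61 fell, beside -0.21 and 11 of 61 in the poor ones. Beta-crystallin S-like Unigene7954 had -0.72 ± 0.23 in the rich libraries and did not pass there (adjusted p = 0.143). Neither did CL619.Contig1 (limma adjusted p = 0.152), ependymin (0.268) or borealin-2 (0.243), although each was negative. Of the HSP70 unigenes, Unigene8846 (0.0777) and Unigene7837 (0.129) did not pass there and Unigene6290 did (0.0264). Unigene7957 (adjusted p = 0.0179), gamma-crystallin N-like CL85.Contig1 (0.00681), phakinin (0.0203) and filensin (0.0184) fell and passed there.

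**Figure D5:**
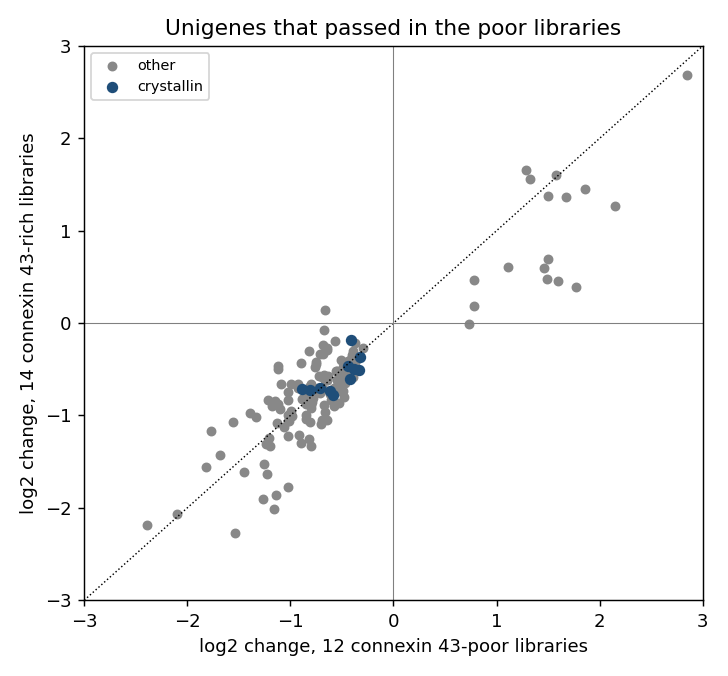
Log2 change (cataract minus no cataract) in the 12 connexin 43-poor libraries (horizontal) and in the 14 connexin 43-rich libraries (vertical) for the 154 unigenes called in the first and tested in both. Of these, 152 have the same sign in both sets, and the dotted line marks equal change.

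No difference between the 2 sets passed when tested directly. The interaction of cataract with connexin 43 class called 0 of 20040 unigenes (0%, with 882 at an unadjusted p below 0.05) in a limma model of all 26 libraries. This test was limited by 2 connexin 43-poor libraries in each diploid group, so it does not show that the effects were equal. The smallest p among unigenes with a protein hit belonged to Unigene12795 (unnamed product), with a difference of 1.11 ± 0.25 (SE), then Unigene5266 (hypothetical protein, 1.605 ± 0.38), CL538.Contig1 (hypothetical protein, 1.01 ± 0.24), CL74.Contig1 (C2orf25 homolog, 0.97 ± 0.23) and Unigene19633 (U5 small nuclear ribonucleoprotein helicase-like, -1.34 ± 0.33), each with an adjusted p of 0.997. For adenosine deaminase the difference, poor minus rich, was 0.79 ± 0.30 (SE) and for Unigene7954 it was -0.20 ± 0.26, both with an adjusted p of 0.997.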

How the data were processed

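The authors deposited RPKM per unigene (contigs assembled without a genome) for 26 poly(A) lens libraries of 50-base reads, per the labels and file headers. Gene names are the table's protein hits. For aligner, assembler and build, nothing is given in the sources used here. Whole reads were recovered from the RPKM for 100% of unigenes within 0.01 reads, and all 26 value columns were used.

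Deposited RPKM were scaled by trimmed means of M values (trims 0.3 and 0.05, computed on recovered reads), and log2(value + 0.5) was fitted in limma 3.58.1 (R 4.3.3; trend, robust) with ploidy as covariate, two-sided, adjusted by Benjamini-Hochberg over unigenes with over 10 reads at the median library size in at least 5 libraries and 15 reads in total. Log2 changes refer to scaled values, whereas levels and overlaps are deposited RPKM. On simulated reads for 7 against 5 libraries (15440 unigenes), 17.9% of 1.5-fold, 52.2% of 2-fold and 95.5% of 4-fold changes were called, as were 4 of 15240 unchanged unigenes. The simulation drew unigenes independently, with changes in random directions and no ploidy effect. It does not cover a shift shared by many unigenes or libraries that stand apart.

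Named were the 15 highest and 15 lowest log2 changes among called unigenes with a hit and mean log2 CPM of at least 1, at most 4 called members per list (otherwise the 2 smallest p), and the 5 smallest interaction p. The libraries, lists and members were chosen with earlier results of these data known. Single measures had exact permutation tests over 792 assignments. Equal replicate numbers correlated above 0.1 in 1 of 7 pairs and were not treated as pairs of fish. With 2 libraries in each 2N group, this check cannot exclude pairing. None of 15 same-group pairs agreed within sampling noise. P-values measure the spread between fish. Sequencing depth limits low unigenes.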

Additional observations from a re-analysis of the deposited data

Results flagged for a closer look

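In 146 groups of 5 or 7 libraries checked, 8 held 1 library far from the others (gap over range above Dixon's 95% value), and chance gives about 1 in 20. On log2 scaled RPKM, 3N+ replicate 8 was lowest among lenses with cataract for CL3983.Contig1 (a hypothetical protein, gap over range 0.578), 3N+ replicate 2 was highest for the neutral amino acid transporter A-like Unigene13816 (0.772, 8.82 RPKM against at most 1.58 in the other 6), and 3N+ replicate 4 was lowest for squalene synthase-like Unigene9849 (0.675). Among lenses without cataract, 2N- replicate 2 was highest for gamma-glutamylcyclotransferase-like Unigene73 (0.851) and 3N- replicate 5 lowest for calcium channel subunit CL913.Contig2 (0.754). For shares of reads, 3N- replicate 5 was highest in erythrocyte markers among lenses without cataract (0.961; 0.117% against a median of 0.00306%). Among lenses with cataract, 2N+ replicate 1 was highest in leukocyte markers (0.712) and 3N+ replicate 1 in surface epithelium markers (0.588; 0.0421% against a median of 0.00769%).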

How the results depend on the processing

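The 157 calls became 78 with RPKM as deposited, 64 scaled to reads outside crystallins, 104 with log2 connexin 43 added, 22 in diploids alone, 33 in triploids alone and 9 in triploids without 3N+ replicates 1, 4 and 7; the cause was not tested beyond the fewer samples in the last 3. Leaving out 1 library gave 32 to 207 calls, with 32 without 3N- replicate 3, 57 without 3N- 2, 81 without 2N+ 1, 83 without 3N- 5, 97 without 2N- 2 and 104 without 2N- 4. Calls numbered 131 without a filter, 219 by voom, 136 with body weight (90 shared) and 134 without 3N+ 1, 4 and 7. With replicate number as a block 160 were called, and no named gene lost its call; the ploidy and class differences stayed at 0. Chosen after seeing the data were median-of-ratios scaling, scaling to reads outside crystallins, the fit of the rich libraries alone, all alternatives for the ploidy difference and the single values, leaving out 1 library for the class difference, and leaving out 3N+ 1, 4 and 7. The 31 named genes that passed kept their direction in all 29 settings (12 leaving out 1 library), and 288 of 899 values no longer passed. These settings drew on the libraries that gave the calls, so the kept direction is not separate evidence. The ploidy difference gave 0 to 4 calls and the class difference 0 to 1 when 1 library was left out. The rich libraries gave 839 calls (667 higher) with RPKM as deposited, 280 with the block and 145 to 399 when 1 library was left out (149 without 2N- 1, 145 without 2N- 3 or 2N- 5, 190 without 2N- 6, 163 without 2N+ 3). The difference in crystallin share was -2.13 points without 3N+ 1, 4 and 7 (exact p = 0.0714), and that in reads 0.718 M (exact p = 0.0397). Leaving out 1 library gave differences of 182.5 to 285 g in body weight and 0.337 to 0.590 M in reads. The planned count-model fits (quasi-likelihood and size-factor based) were not run because the deposited unit is RPKM. At 10.34 to 11.95 M reads, unigenes of low abundance rest on few reads.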
